A study of Mus musculus with 16 samples.

Results

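Skeletal muscle and heart are the 2 striated muscles among the 8 mouse tissues profiled here, and their open chromatin was compared between the 2 muscle and the 2 heart libraries of 16 libraries in all. The assay was ATAC-seq, in which the Tn5 transposase places sequencing adapters into accessible DNA, so that accessible regions appear as peaks of tags. All 4 libraries came from male C57BL/6 mice without any transgene or deletion, 12 weeks old when acquired. Fed mice had free access to chow and fasting mice had no food for 24 h. Each library was 1 pool of frozen tissue powder from 3 mice, and the muscle and the heart of a state came from the same mice. Neither a second pool nor a single cell type was measured, the labels do not say which muscle was taken, and the fed and fasting libraries served as the 2 libraries a side. With 4 libraries there are 6 assignments to 2 tissues, so an exact permutation test could not go below p = 0.333, and calls rest on non-overlap of the libraries.

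Regions were the distinct peaks with a false discovery rate (q) under 0.01, called the set of a library. The sets held 159194 regions in fed muscle, 171079 in fasting muscle, 132541 in fed heart and 141888 in fasting heart. A region was called muscle-specific if it lay in both muscle sets and no deposited peak of either heart library overlapped it, and heart-specific by the same rule with the tissues exchanged. This gave 38089 muscle-specific regions, which are 31.8% of the 119925 regions found in both muscle sets, and 11580 heart-specific regions, which are 14.9% of the 77806 found in both heart sets. A further 53331 regions were shared by all 4 sets.

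Skeletal and cardiac muscle share the sarcomere, the repeating unit of thick and thin filaments, but build much of it from different members of the same protein families. In skeletal muscle the myogenic factors of the MyoD family, which bind E-boxes, act with MEF2 and other factors, while heart cells, which do not normally express the MyoD family, rely on GATA4, NKX2-5, TBX5, TBX20 and HAND2. Whole tissue also holds endothelium, fibroblasts, nerve and immune cells, and fewer nuclei of a type cannot be told apart from less open chromatin per nucleus in such samples.

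Sequences are given first for the promoters of the 2 marker genes, Acta1, which encodes skeletal alpha-actin, and Myh6, which encodes the alpha cardiac myosin heavy chain. They run up to 149 bases to each side of the summit of the strongest peak in fed muscle or fed heart, stop at annotated UTRs, and are read on the + strand of GRCm38. Capitals mark matches, on either strand, to the 13 motifs described below.
Acta1 promoter, chr8:123894752-123895031: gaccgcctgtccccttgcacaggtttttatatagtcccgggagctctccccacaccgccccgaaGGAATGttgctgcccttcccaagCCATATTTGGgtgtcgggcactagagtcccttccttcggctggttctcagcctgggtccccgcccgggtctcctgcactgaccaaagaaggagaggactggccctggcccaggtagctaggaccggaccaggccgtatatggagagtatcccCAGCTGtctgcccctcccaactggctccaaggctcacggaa
Myh6 promoter, chr14:54968260-54968558: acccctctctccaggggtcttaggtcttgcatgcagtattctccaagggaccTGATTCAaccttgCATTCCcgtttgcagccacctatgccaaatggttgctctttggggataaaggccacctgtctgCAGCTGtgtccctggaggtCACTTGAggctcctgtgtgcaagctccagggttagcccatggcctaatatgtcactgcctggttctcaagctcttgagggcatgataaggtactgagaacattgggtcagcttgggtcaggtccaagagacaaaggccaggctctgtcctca
The Acta1 summit lay at -131 bp from the start of the gene, and its window held a CArG box, the site of serum response factor, a TEAD site and a MyoD-type E-box. The Myh6 summit lay at -1482 bp from the start, and its window held a MyoD-type E-box, an NKX2 site, a TEAD site and an AP-1 site. Among 604702 windows of 299 bases around the summits of the 4 sets, 1.42% held a CArG box, 14.3% an NKX2 site, 16.4% a TEAD site, 22.7% a MyoD-type E-box and 10.7% an AP-1 site.

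The strongest tissue-specific regions, ordered by the lower of their 2 ranks, are shown next because they define the extremes of each class. Specific here means muscle against heart only. Of the first 5 of each class, all but muscle-specific region 3 and heart-specific region 4 also had a peak in another tissue. A rank is the percentile of a peak's p in the list of its library, with 100 at the top, and a promoter without any peak was given 0. The first muscle-specific region, in an intron of Chst9, is named only, and the next 3 follow.
Muscle-specific region 2, chr1:53037700-53037998: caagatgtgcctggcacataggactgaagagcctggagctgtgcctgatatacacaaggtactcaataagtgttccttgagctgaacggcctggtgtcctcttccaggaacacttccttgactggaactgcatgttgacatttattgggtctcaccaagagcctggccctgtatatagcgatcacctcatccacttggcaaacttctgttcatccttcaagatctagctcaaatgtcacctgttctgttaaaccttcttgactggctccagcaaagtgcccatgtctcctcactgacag
Muscle-specific region 3, chr19:20549501-20549799: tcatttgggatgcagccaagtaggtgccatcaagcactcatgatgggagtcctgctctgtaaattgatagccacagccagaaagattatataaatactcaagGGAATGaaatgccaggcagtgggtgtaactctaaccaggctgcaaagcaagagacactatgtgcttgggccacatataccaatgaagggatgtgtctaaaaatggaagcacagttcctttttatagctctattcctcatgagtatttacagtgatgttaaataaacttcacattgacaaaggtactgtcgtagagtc
Muscle-specific region 4, chr14:22627331-22627629: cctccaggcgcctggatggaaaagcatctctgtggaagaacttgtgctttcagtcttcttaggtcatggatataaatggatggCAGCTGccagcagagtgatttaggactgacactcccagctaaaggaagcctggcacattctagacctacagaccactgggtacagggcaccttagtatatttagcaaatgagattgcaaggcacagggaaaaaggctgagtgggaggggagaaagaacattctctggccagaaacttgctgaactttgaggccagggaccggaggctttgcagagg
Region 2 was intergenic, region 3 lay in an intron of Aldh1a1, which encodes a retinaldehyde dehydrogenase, and region 4 in an intron of Lrmda. Their ranks were 98.6 in fed and 98.95 in fasting muscle for region 2, 98.6 and 99.3 for region 3, and 98.5 and 98.2 for region 4. Region 4 held a MyoD-type E-box, region 3 a TEAD site and region 2 none of the motifs. Region 5, not shown, was intergenic and ranked 98.03 and 98.3.
Heart-specific region 1, chr9:24774304-24774562: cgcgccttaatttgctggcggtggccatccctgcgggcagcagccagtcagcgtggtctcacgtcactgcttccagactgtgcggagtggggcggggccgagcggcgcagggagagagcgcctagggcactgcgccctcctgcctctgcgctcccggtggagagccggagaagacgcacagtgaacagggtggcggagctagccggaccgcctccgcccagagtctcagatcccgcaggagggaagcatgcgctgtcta
Heart-specific region 3, chr12:82664735-82665033: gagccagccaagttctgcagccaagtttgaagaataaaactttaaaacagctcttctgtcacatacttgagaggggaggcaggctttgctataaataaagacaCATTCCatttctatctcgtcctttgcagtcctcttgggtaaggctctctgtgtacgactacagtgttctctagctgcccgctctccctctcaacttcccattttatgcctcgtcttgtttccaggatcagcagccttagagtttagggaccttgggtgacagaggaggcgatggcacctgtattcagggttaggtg
Heart-specific region 2, chr1:132791108-132791406: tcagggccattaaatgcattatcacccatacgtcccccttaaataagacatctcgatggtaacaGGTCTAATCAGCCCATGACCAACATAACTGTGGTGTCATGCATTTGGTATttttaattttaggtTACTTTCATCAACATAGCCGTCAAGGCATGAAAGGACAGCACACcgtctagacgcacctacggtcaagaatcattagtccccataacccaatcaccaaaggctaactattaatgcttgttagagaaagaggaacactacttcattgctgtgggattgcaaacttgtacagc
Heart-specific region 1 was the promoter of Tbx20, a T-box factor required for heart formation, with its summit 110 bp from the start and ranks of 98.4 in fed and 98.1 in fasting heart. Region 3 lay in an intron of Rgs6, which encodes a regulator of G protein signalling, ranked 96.0 and 96.6 and held a TEAD site. Region 2, an intergenic region whose nearest protein-coding start is that of Nfasc, ranked 96.9 and 99.1. In region 2 the capitals mark something else, namely 94 bases that lie in stretches of at least 30 bases identical to the mitochondrial genome.

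Nuclear chromosomes carry old copies of mitochondrial DNA, and regions like these were counted next. Windows reaching 150 bases to each side of the summit that share 30 bases in a row with the mitochondrial genome made up 13 of the 20 strongest regions of fed heart and 12 of the 20 strongest of fasting heart, against 3 of 20 in each muscle library. In number they were few. They came to 7 of 11580 heart-specific regions, 0 of 38089 muscle-specific regions, which allows a share of up to 0.00968% at the upper end of the exact interval, and 19 of the regions shared by all 4 sets. Among the 5 strongest heart-specific regions, regions 2 and 5 were of this kind, while region 4 lay in an intron of Ube2ql1. The authors removed reads assigned to the mitochondrial genome itself, and the part of reads placed on nuclear copies in these peaks was not tested.

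Both marker genes went with their labels. The Acta1 promoter ranked 93.7 in fed and 92.2 in fasting muscle, against 80.2 and 67.2 in heart. Its strongest peak reached 68.4 and 53.1 times the background tags of the library in muscle, and 4.88 and 3.77 times in heart. The Myh6 promoter ranked 91.3 in fed and 76.3 in fasting heart, against 27.1 in fed muscle and no peak in fasting muscle. Neither promoter was limited to its tissue, since Acta1 ranked 93.1 in fed and 94.4 in fasting white adipose tissue and Myh6 ranked 75.4 and 80.9 in kidney.

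The libraries differed in depth and in enrichment, which bears on every count of specific regions. In muscle the background expected by the peak caller, a stand-in for depth, was 6.39 (fed) and 10.6 (fasting) tags, and in heart 4.92 and 5.84 tags. The median summit of a set stood 5.95 and 5.78 times over background in muscle but 4.68 and 4.28 times in heart, and the value of fasting heart was the lowest of the 16 libraries, which reached up to 9.63. The 1000 strongest regions had median heights of 85.0 and 82.6 times background in muscle, and of 35.8 and 28.4 in heart. In fasting muscle every listed peak had q under 0.01, so that the length of the list ended the set. Tags were also thinned to the shallowest of the 4 libraries. Lists were then cut at p under 0.01, and sets at p under 1e-05 in place of q. This gave 21587 muscle-specific and 5685 heart-specific regions. With the 50000 strongest regions of each library as its set, and absence still judged by every listed peak, the counts were 7057 and 1664.

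As sets, muscle and heart resembled each other more than most tissues did. The Jaccard index, the shared bases over the bases of either set, averaged 0.370 over the 4 muscle-heart pairs of libraries, with a range from 0.367 to 0.375. Among the 28 pairs of tissues this was second to brown and white adipose tissue, at 0.436, and the next pair was lung and white adipose tissue, at 0.358, whose highest value of 0.364 was below the lowest muscle-heart value. The fed and fasting libraries of 1 tissue were closer, at 0.604 in muscle and 0.483 in heart. Within the heart, the index between states therefore exceeded the muscle-heart index by a smaller margin than within muscle.

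Tissue-specific regions lay away from promoters more often than shared ones. The summit was within 3000 bp of an annotated start in 24.03% of muscle-specific regions (exact 95% interval 23.6 to 24.5), in 28.5% of heart-specific regions (27.7 to 29.3) and in 49.4% of regions shared by all 4 sets (49.0 to 49.8). All such intervals cover counting error only. Introns held 62.7% of muscle-specific, 56.7% of heart-specific and 45.9% of shared summits. Specific regions were also narrower, with median widths of 192 bp in muscle and 157 bp in heart against 364 bp, and carried a median of 2 and 3 CpG dinucleotides against 4. The rule itself favours narrow and weak regions in the specific classes, since absence of any overlap defines them, and wide and strong ones among the shared. Median fed ranks were 55.7 in muscle-specific and 64.2 in heart-specific regions, against 79.4 in shared regions, taken in fed muscle. Both ranks were over 90 in 1079 muscle-specific and 147 heart-specific regions. For the whole sets, the promoter share was 34.9% in fed and 33.5% in fasting muscle and 37.5% and 36.7% in heart, a difference of -2.91 percentage points (exact permutation test, two-sided p = 0.333, the smallest it can give).

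**Figure D1:**
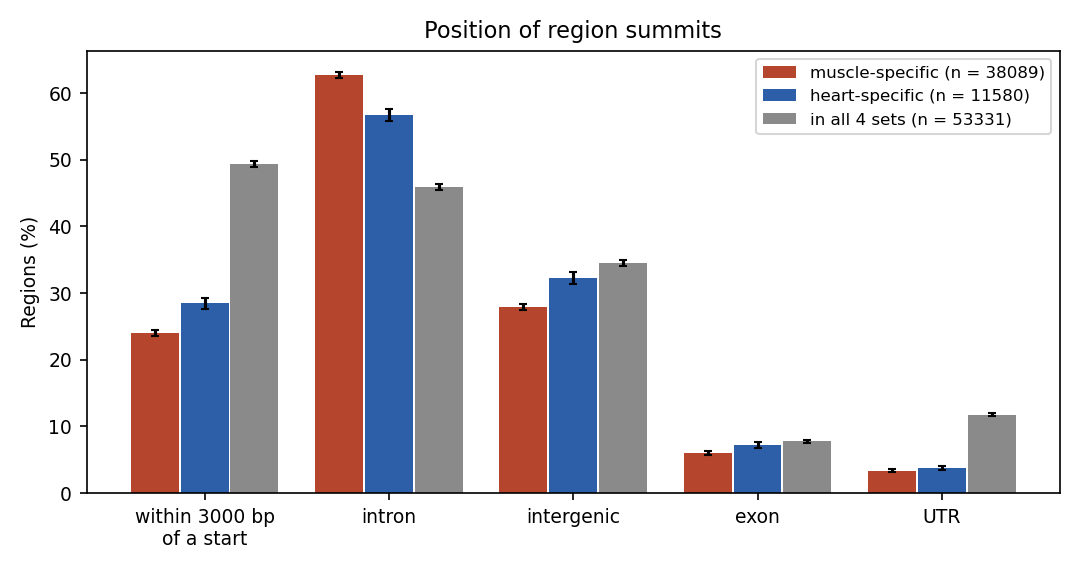
Share of region summits (y axis, percent) by position (x axis) for muscle-specific, heart-specific and shared regions, with exact 95% intervals as error bars. Promoter windows can overlap the other positions. Shared regions had a promoter share of 49.4%, against 24.03% and 28.5% in the specific classes.

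Whether a specific region was also open elsewhere differed between the classes. No deposited peak of the other 12 libraries overlapped 38.6% of the muscle-specific regions (14685 regions, exact 95% interval 38.1 to 39.0) and 23.9% of the heart-specific regions (2763 regions, 23.1 to 24.6). Heart-specific regions were found most in the lung, where 36.5% overlapped a region of the set on average, against 20.4% to 24.7% in the other 5 tissues. Muscle-specific regions overlapped sets most in white adipose tissue (23.3%) and brown adipose tissue (22.1%) and least in liver (14.1%). In lung their share was 19.7%, and the fed and fasting lung libraries gave 19.7% and 19.6%, against 37.3% and 35.7% for the heart-specific regions.

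**Figure D2:**
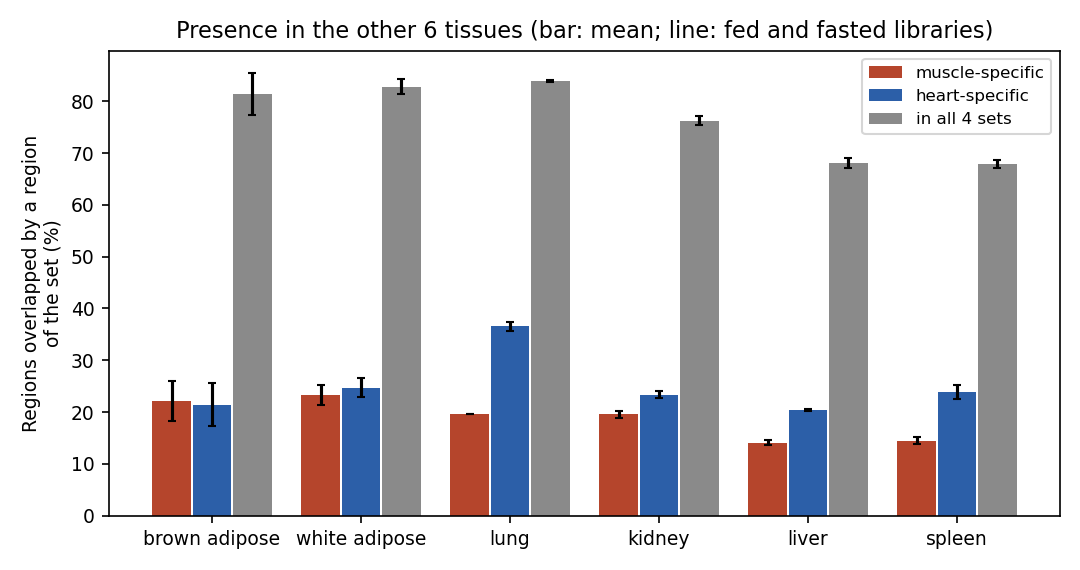
Share of regions overlapped by a region of the set in each other tissue (y axis, percent), as the mean of the fed and fasting libraries (bars) with both values (error bars). Heart-specific regions were overlapped most in lung (36.5%), muscle-specific regions in white adipose tissue (23.3%), and shared regions were overlapped in 67.9% (spleen) to 84.0% (lung).

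Promoters were compared over 21938 protein-coding genes, using the highest rank of any peak within 3000 bp of a start of the gene. A promoter was called higher in a tissue where its lower rank there exceeded its higher rank in the other tissue by 10 percentile points or more. By this rule 632 promoters (2.88%) were higher in muscle and 1549 (7.06%) higher in heart. The excess in heart depended on the scale, because ranks taken within the sets alone gave 1118 higher in muscle and 872 in heart. Most promoters were not called, with a median difference of 0 points and 9566 promoters (43.6%) over 90 in all 4 libraries. The genes include 4423 without a peak in any of the 4 libraries, whose difference is 0 by definition. The median size of the difference was 1.60 points. The fed and fasting libraries of a tissue differed by 10 points or more in 8.50% of promoters in muscle and 14.5% in heart. A stricter class, promoters in both sets of a tissue with no deposited peak at all in the other, held 179 genes in muscle (0.816%) and 250 in heart (1.14%).

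**Figure D3:**
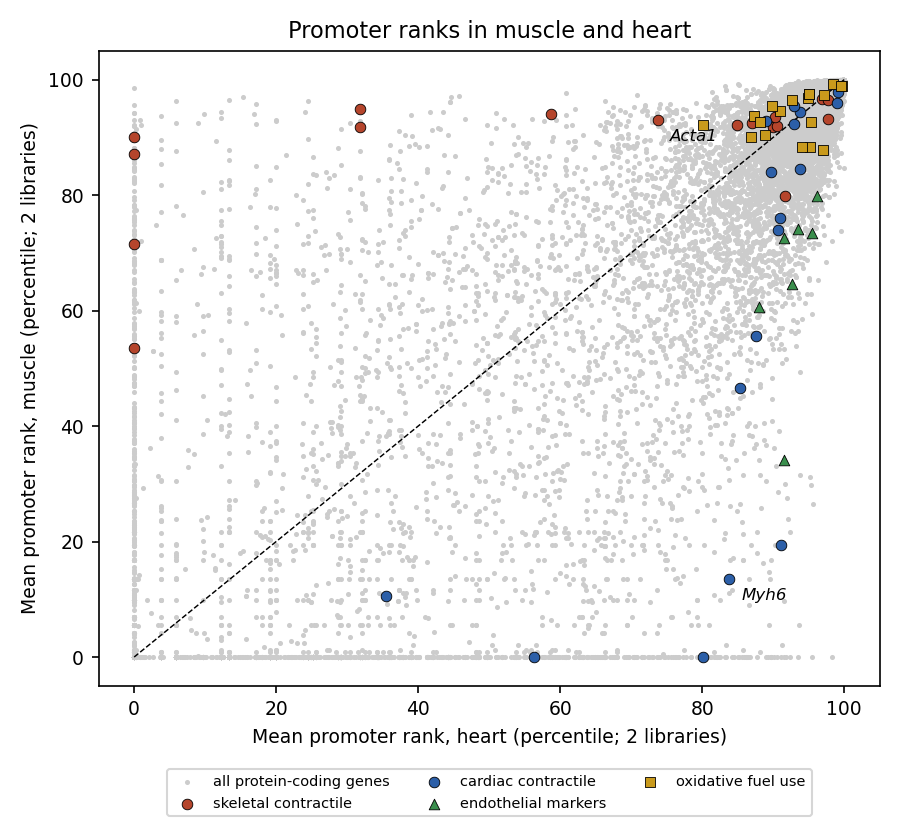
Mean promoter rank in muscle (y axis) against heart (x axis), both percentiles over 2 libraries, for all protein-coding genes (grey) and 4 gene lists. The dashed line marks equal ranks. Skeletal contractile genes spread to the left at high muscle ranks, cardiac contractile genes and endothelial markers spread downwards at high heart ranks, and oxidative genes stay in the upper right corner.

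Of the 17 skeletal contractile genes, 8 were called higher in muscle and 1 in heart, with a median difference of 7.29 points against 0 over all genes. Mybpc1, the slow-type myosin-binding protein C, ranked 88.8 in fed and 91.4 in fasting muscle and had no peak in heart. Myh4, the fast 2B myosin heavy chain, ranked 90.9 and 83.2, and Myh1, the fast 2X heavy chain, 67.2 and 75.9, again with no peak in heart. Myl1, a fast myosin light chain, ranked 94.4 and 95.4 in muscle, and in heart it had no peak in the fed library and 63.6 in the fasting one. Other fast-fibre genes were not called, with differences of -0.24 points at Mylpf, the fast regulatory light chain, 1.45 at Tnni2, the fast troponin I, 1.82 at Tnnt3, the fast troponin T, 3.19 at Mybpc2, the fast-type myosin-binding protein C, and 5.53 at Actn3, the fast-fibre alpha-actinin. At Mylpf, Tnni2, Tnnt3 and Mybpc2 a heart rank lay above 90, so the rule could not call them higher in muscle. Close ranks did not mean equal heights. At Tnni2 the peak stood 78.1 and 67.5 times over background in muscle and 9.76 and 9.94 times in heart, where heights were lower in general. The gene called higher in heart was Tnnt1, slow skeletal troponin T, at 80.0 and 79.6 in muscle and 91.2 and 91.9 in heart.

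Of the 17 cardiac contractile genes 8 were called higher in heart and 0 in muscle, with a median difference of -14.97 points. Myh7, the beta myosin heavy chain of the ventricle and of slow fibres, had no peak in either muscle library and ranked 87.3 in fed and 73.0 in fasting heart. Nppb, which encodes brain natriuretic peptide, ranked 94.4 and 87.6 in heart and 39.0 and 0 in muscle. Nppa, the atrial natriuretic peptide gene, ranked 65.7 and 47.0 in heart with no peak in muscle. Myl2, the ventricular regulatory light chain, ranked 86.2 and 84.5 against 42.1 and 51.1. The giant sarcomere gene Ttn, used in both tissues, differed by 3.87 points and was not called.

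Excitation and calcium release followed the same division. Among 16 genes of skeletal calcium handling and the neuromuscular junction 7 were higher in muscle and 1 in heart, with a median difference of 10.7 points. Cacng1, the gamma subunit of the skeletal calcium channel, ranked 96.4 and 96.3 in muscle and 11.7 and 0 in heart. Chrna1, the alpha subunit of the muscle acetylcholine receptor, ranked 86.3 and 82.5 with no peak in heart, and Pvalb, the calcium buffer parvalbumin, ranked 94.0 and 94.8 against 0 and 24.4. Ryr1, the skeletal calcium release channel, ranked 95.4 and 95.1 against 64.2 and 0. The call in the other direction was Mymk, the membrane activator of myoblast fusion, at 0 and 30.6 in muscle and 88.2 and 69.9 in heart. On the cardiac side 4 of 17 genes were higher in heart and 1 in muscle, with a median of -3.79. Dsp, the desmosomal plaque protein, ranked 93.5 and 90.8 in heart against 33.6 and 14.001. Pln, the calcium pump inhibitor phospholamban, ranked 91.1 and 84.9 against 56.6 and 57.8. The gene higher in muscle was Sln, sarcolipin, another small pump inhibitor, which ranked 76.0 and 90.004 in muscle with no peak in heart, the ventricle and atrium not being separated here.

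Of 17 myogenic regulators 8 were higher in muscle and 1 in heart, with a median of 12.7 points. Myf6, the MyoD-family factor of mature fibres, ranked 93.9 in fed and 92.1 in fasting muscle, with summits 45.7 and 41.3 times over background, and had no peak in heart. Pax7, the marker of satellite cells, ranked 81.7 and 70.4 with no peak in heart, and Vgll2, a cofactor of TEAD, 90.9 and 88.2 against 0 and 7.64. Myod1 itself was less exclusive, at 95.1 and 90.5 in muscle and 60.2 and 75.8 in heart. Myf5, another member of the family, ranked 59.2 and 61.2 against 39.8 and 24.4. Eya4, Lbx1 and Six4 were also called, with differences of 22.7, 16.04 and 12.7 points. Myog, the differentiation factor of the family, was not called and lay at 87.5 and 89.4 in muscle and 92.2 and 96.2 in heart. Mef2a, Mef2c and Mef2d, used by both tissues, differed by at most 3.08 points in size. Meox2, a homeobox factor also used in endothelium, was higher in heart, at 97.4 and 96.8 against 83.9 and 83.1.

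Of 17 cardiac factors 10 were higher in heart and 1 in muscle, with a median of -21.5 points. Tbx20 ranked 98.4 in fed and 98.1 in fasting heart, at 25.2 and 18.2 times background, with no peak in muscle. Nkx2-5 ranked 95.4 and 91.5, Tbx5 79.1 and 81.2 and Irx4, a ventricular homeobox factor, 60.5 and 61.2, and all 3 lacked a peak in both muscle libraries. Hand2 ranked 88.2 and 80.4 against 11.1 and 23.4. Of the GATA factors, Gata4 ranked 92.1 and 95.1 in heart against 72.3 and 72.0, Gata6 97.7 and 97.1 against 71.8 and 65.2, and Gata5 56.7 and 70.7 against 15.6 and 38.9. Myocd, the SRF coactivator myocardin, ranked 90.1 and 83.2 against 19.7 and 57.1. Zfpm2, a GATA partner, differed by -18.8 points. Isl1, a factor of the second heart field and of motor neurons, was the gene called higher in muscle, at 69.8 and 63.0 against 50.2 and 0. Srf, Smyd1 and Hey2 lay above 90 in all 4 libraries.

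**Figure D4:**
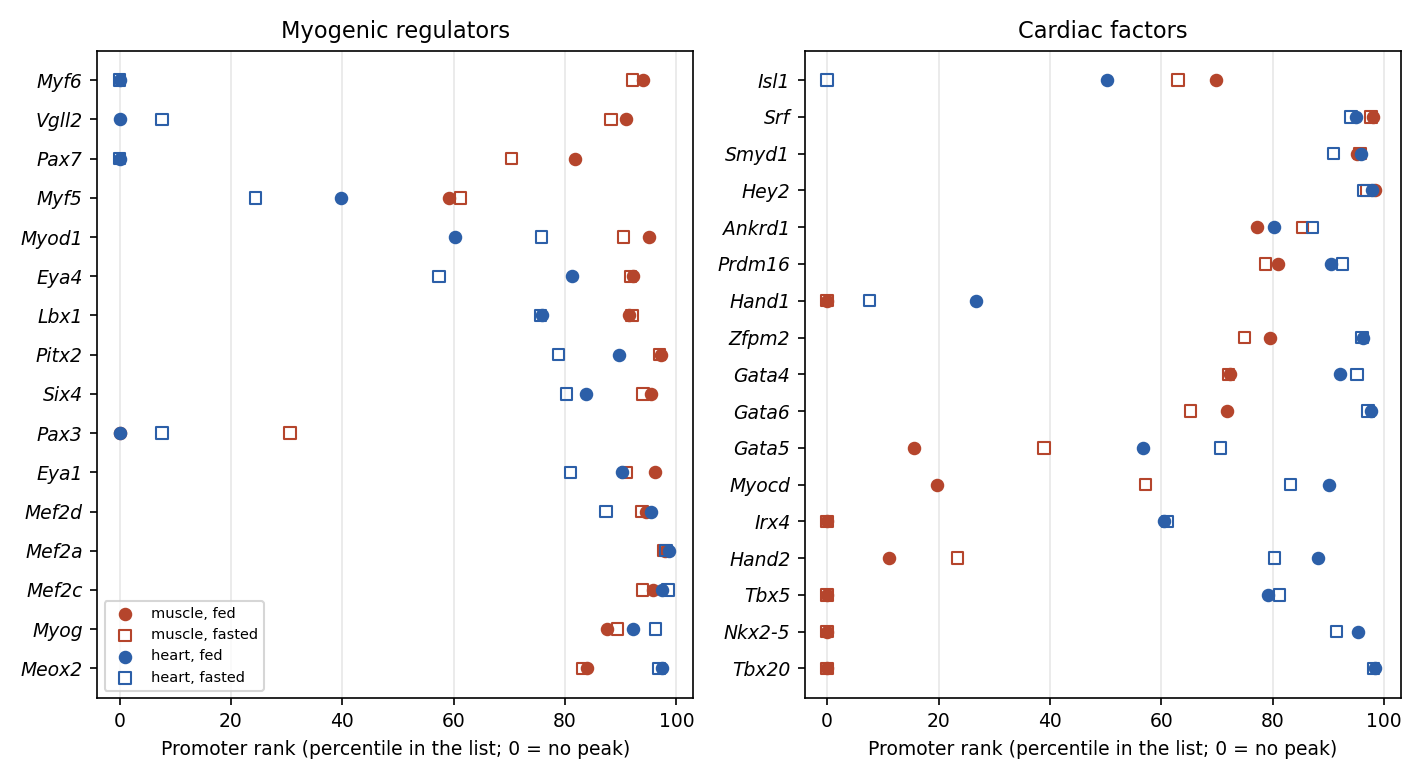
Promoter rank (x axis, percentile in the list, 0 where no peak was listed) of 16 myogenic regulators and 17 cardiac factors (y axis) in the 4 libraries, muscle in red and heart in blue, fed filled and fasting open. Myf6 and Pax7 had no peak in heart, and Tbx20, Nkx2-5, Tbx5 and Irx4 none in muscle. Among the Mef2 genes the largest difference was -3.08 points, at Mef2c.

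Promoters of genes that record body position all had a peak in muscle, and all but Hoxc11 had one in a heart library too. Of 17 limb and position genes 8 were higher in muscle and 0 in heart, with a median of 15.5 points. Hoxc11 ranked 86.3 and 88.5 with no peak in heart, Hoxc10 93.6 and 91.9 against 39.8 and 0, and Tbx15, a factor of fast fibres and of the limb and trunk, 94.7 and 94.8 against 64.2 and 0. These HOX genes are those of the posterior trunk and hindlimb. Pitx1, the hindlimb factor, was not called and had a difference of -15.4 points. Its heights were 5.01 and 3.98 times background in muscle and 3.86 and 3.77 in heart, and 9 muscle-specific and 0 heart-specific regions lay nearest it.

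None of the 19 genes of oxidative fuel use was called in either direction, with a median of 1.90 points and mean ranks between 92.4 and 94.5 in the 4 libraries. A rank cannot exceed 100 and a call needed a gap of 10 points, so a promoter above 90 in a heart library could not be called higher in muscle, nor one above 90 in a muscle library higher in heart. Of the 19 promoters 16 lay above 90 in a heart library and 16 in a muscle library, and of 16 promoters of glycogen and glycolysis 14 and 15 did. The limit touched other lists too. Above 90 in a heart library were 7 of 17 skeletal contractile, 6 of 16 skeletal calcium, 7 of 17 myogenic and 7 of 7 endothelial promoters. Above 90 in a muscle library were 6 of 17 cardiac contractile, 8 of 17 cardiac calcium and 3 of 17 cardiac factor promoters. Of 16 genes of glycogen and glycolysis only Ampd1, the adenosine monophosphate deaminase of muscle fibres, was called, at 89.3 and 82.9 in muscle against 26.7 and 0 in heart. Slc2a4, the insulin-regulated glucose transporter, differed by 0.0042 points, and Cpt1b, the muscle form of the mitochondrial carnitine transferase, by 3.56 points.

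Markers of some other cell types of the whole tissues also differed. Over all genes 2.88% of promoters were called higher in muscle and 7.06% higher in heart. Of 7 endothelial markers 6 were higher in heart and 0 in muscle, and their mean rank was 57.6 in fed and 73.6 in fasting muscle and 91.8 and 93.6 in heart. Emcn, endomucin, ranked 87.2 and 95.9 in heart against 11.1 and 57.1, and Cdh5, the endothelial cadherin, 96.0 and 94.9 against 70.3 and 76.6. No endothelial marker lacked a peak in both libraries of a tissue. Among 5 mesothelial and epicardial markers Wt1, at 90.8 and 88.6 in heart and no peak in muscle, and Lrrn4 were higher in heart, and mean ranks were 15.2 and 16.003 in muscle and 55.0 and 41.4 in heart. Of 7 fibroblast markers Tcf21, a factor of cardiac fibroblasts and epicardium, was higher in heart, at 89.5 and 79.4 with no peak in muscle. Of 7 adipocyte markers 3 (Fabp4, Plin1 and Pparg) were higher in heart, while Adipoq, Cidec, Lep and Retn were not called. Of the immune markers, Lyz2 was higher in heart and Cd3e in muscle. Of 7 lung epithelial markers Epcam was called higher in muscle, while the median difference of the list was -7.93 points. The other 6 were not called and ranged from -18.6 points at Sftpb to 19.0 at Scgb1a1. None of 7 smooth muscle and pericyte markers and none of 6 nerve markers was called. The part of cell composition in the differences above was not tested.

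The 10 promoters with the largest difference in each direction were not limited to the lists. Toward heart they were Tbx20, Tecrl, Nkx2-5, Olfr455, Kcnd2, Kcna4, Bpifb1, Gm10639, Tnni3k and Wt1, from -98.3 points at Tbx20 to -89.7 at Wt1. Kcnd2 and Kcna4 encode potassium channels of the transient outward current, Tnni3k a kinase of heart muscle, and Tecrl a reductase-like protein linked to inherited arrhythmia. Toward muscle they were Adamts13, Mettl11b, Aox2, Tnc, Myf6, Rsph6a, Mettl21c, Gm6133, Tph1 and Gm49369, from 98.6 points at Adamts13 to 91.3 at Gm49369. Tnc encodes the matrix protein tenascin-C of tendon and the muscle-tendon junction, and Mettl21c a lysine methyltransferase of muscle. In 2 of these 10 the strongest peak of fed muscle was also overlapped by a heart peak. At Adamts13 its summit lay 3352 bp from the start, beside Cacfd1, with both heart libraries overlapping, and at Gm49369 1 heart library did. None of the 10 toward heart had such an overlap.

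Specific regions, those at promoters included, were assigned to the nearest protein-coding start within 100000 bp, which placed 33800 of 38089 muscle-specific and 9968 of 11580 heart-specific regions. Of all genes 40.8% had at least 1 muscle-specific region and 22.7% at least 1 heart-specific region. Muscle-specific regions were most numerous at Pde4d, a cyclic AMP phosphodiesterase (153 regions), Neb, the thin-filament ruler nebulin (96), Rbfox1, a splicing factor (91), Sox6, which represses slow-fibre genes (86), and Kcnma1, a calcium-activated potassium channel (85). Heart-specific regions were most numerous at Ryr2, the cardiac calcium release channel (72), Ablim1, an actin-binding protein (27), Cacna1c, the cardiac L-type calcium channel (25), Corin, the protease that activates natriuretic peptide (25), and Cacnb2, a calcium channel subunit, tied with Cdh2, N-cadherin (21 each). These counts are not scaled by length, and the genes ran from 204 kb at Corin to 1526 kb at Rbfox1. Length alone did not order them, since Neb, of 242 kb, held 94 muscle-specific summits within its body and Pde4d, of 1504 kb, 147. Most of these genes had few regions of the other class, with 0 at Ryr2, Corin, Neb and Sox6, 5 at Cacna1c and Rbfox1, 9 at Pde4d and 11 at Ablim1.

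To show what such regions look like, the strongest region of the leading gene of each tissue, chosen after the counts were seen, is given with motif matches in capitals.
Pde4d region, chr13:109752569-109752867: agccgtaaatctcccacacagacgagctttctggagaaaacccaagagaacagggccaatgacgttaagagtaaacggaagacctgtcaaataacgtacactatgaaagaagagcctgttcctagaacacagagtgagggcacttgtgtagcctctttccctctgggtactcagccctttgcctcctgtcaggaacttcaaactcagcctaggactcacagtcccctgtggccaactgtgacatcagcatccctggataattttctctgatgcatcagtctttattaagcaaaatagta
Ryr2 region, chr13:12133898-12134196: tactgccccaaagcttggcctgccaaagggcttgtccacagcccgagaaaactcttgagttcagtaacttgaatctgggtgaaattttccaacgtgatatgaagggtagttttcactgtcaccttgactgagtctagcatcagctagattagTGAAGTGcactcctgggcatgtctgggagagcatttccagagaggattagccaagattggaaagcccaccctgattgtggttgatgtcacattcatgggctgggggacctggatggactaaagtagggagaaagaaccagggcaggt
The Pde4d region lay in an intron 4503 bp from the nearest start and ranked 97.7 in fed and 97.3 in fasting muscle. The Ryr2 region lay between genes, 27102 bp from the start, ranked 89.5 and 89.3 in heart, and held an NKX2 site.

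The counts by list stand beside the totals over all genes, 33800 muscle-specific and 9968 heart-specific regions, and were not tested. Skeletal contractile genes had 146 muscle-specific and 3 heart-specific regions, with at least 1 muscle-specific region at 16 of 17 genes. Myogenic regulators had 232 against 9, of which Eya4 held 56 and Mef2c 41. Limb and position genes had 81 against 0. Cardiac factors had 19 muscle-specific and 121 heart-specific regions, led by Myocd (20), Gata4 (18) and Hand2 (18). Cardiac calcium and conduction genes had 40 against 186, of which Ryr2 held 72. The cardiac contractile list had 104 muscle-specific regions and 44 heart-specific ones, and 74 of them lay at Ttn, which is a gene of both tissues. Glycogen and glycolysis genes, of whose promoters only Ampd1 was called, had 71 muscle-specific and 4 heart-specific regions, and at least 1 muscle-specific region lay at 16 of 16 genes. Oxidative genes had 49 against 22.

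Sequence was read within 100 bp of each summit for 13 motifs, on both strands, none of which contains another, and 12 are reported here. A MyoD-type E-box (CAGCTG) was present in 19.8% of muscle-specific regions (exact 95% interval 19.4 to 20.2), 15.7% of heart-specific regions (15.01 to 16.3) and 18.6% of shared regions. The E-box control (CATCTG) showed a gap of like size, with 19.8% against 15.8%, and 14.3% in shared regions. Away from promoters CAGCTG was in 21.8% of shared regions (21.3 to 22.3), above the 19.7% of muscle-specific ones (19.3 to 20.2). The heart-specific share there was 15.96%. CATCTG was in 17.96% of shared, 20.4% of muscle-specific and 16.64% of heart-specific regions away from promoters. Within the muscle-specific class the 2 differed, since CAGCTG was found in 23.2% of the strongest 25% by rank and 17.4% of the weakest 25%, and CATCTG in 19.996% and 18.9%.

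The GATA site (AGATAA) went the other way. It was present in 12.3% of heart-specific regions (11.7 to 12.9), 6.98% of muscle-specific regions (6.72 to 7.24) and 5.39% of shared ones, and in 17.6% of the strongest 25% and 9.84% of the weakest 25% of heart-specific regions. Among regions away from promoters the shares were 13.2% in heart and 7.28% in muscle. The TEAD site (CATTCC) was present in 13.1% of heart-specific and 11.8% of muscle-specific regions. The MEF2 box did not separate the classes, at 1.83% in heart-specific (1.59 to 2.09) and 1.70% in muscle-specific regions (1.57 to 1.83), but was more frequent in the strongest 25% of both, at 3.14% and 2.81%. The intervals of the 2 classes also overlapped for the CArG box (0.95% in muscle, 0.93% in heart), the NKX2 site (TNAAGTG, 11.2% and 10.9%), the T-box site (AGGTGTGA, 0.87% and 1.002%) and the ESRR half-site (AAGGTCA, 5.41% and 5.64%). The AP-1 site (TGANTCA) was present in 8.60% of muscle-specific and 7.82% of heart-specific regions. Sites of general promoter and boundary factors were rare in both classes, with the ETS site (CCGGAAGT) in 0.23% and 0.47% against 2.07% of shared regions and the CTCF core (AGGGGGCGC) in 0.24% and 0.16% against 1.77%.

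**Figure D5:**
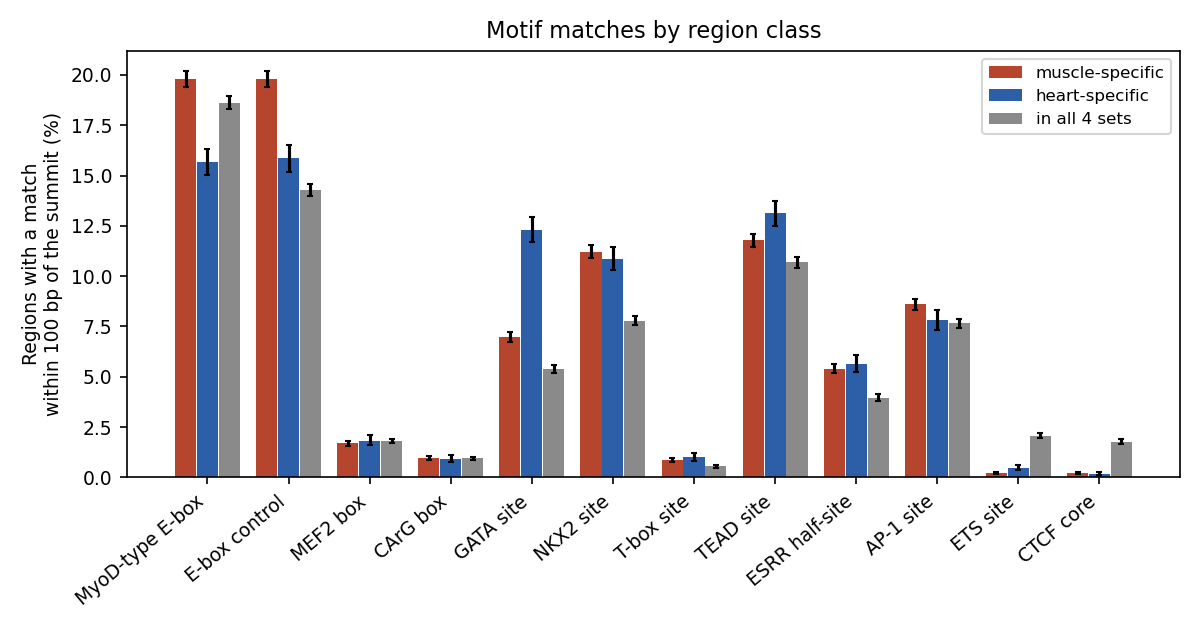
Share of regions with a motif match within 100 bp of the summit (y axis, percent) for 12 motifs (x axis) in muscle-specific, heart-specific and shared regions, with exact 95% intervals. The GATA site is higher in heart-specific regions (12.3% against 6.98%), while the MEF2 and CArG boxes overlap.

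Over the whole sets the MyoD-type E-box and the GATA site differed by less than between the specific classes, by 2.07 and -0.85 points (muscle minus heart) against 4.12 and -5.34. The MEF2 box differed by 0.32 points over the sets and by -0.13 between the classes. The MyoD-type E-box was in 18.6% of fed and 18.5% of fasting muscle regions and in 16.7% and 16.3% of heart regions. The GATA site was in 6.54% and 6.75% of muscle and 7.62% and 7.37% of heart regions. For these 2 motifs the 2 tissues did not overlap (exact permutation test, two-sided p = 0.333 each, the smallest that 4 libraries can give). The E-box control did not overlap either, with a difference of 1.56 points. Nor did the MEF2 box, the CArG box, the NKX2 site and the CTCF core, so non-overlap was not particular to these 2. The differences between the classes moved when a library was left out. The tissue then had 1 library, so its regions no longer had to lie in both states. Its class grew to 71439 or 65501 regions in muscle and 55104 or 46922 in heart. The difference in MyoD-type E-box share fell to 1.45 points without fed muscle and 2.09 without fasting muscle. That of the GATA site became -2.15 points without fed heart and -2.89 without fasting heart.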

How the data were processed

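Peak lists of 4 ATAC-seq libraries, and of the other 12 of the series for comparison, were analysed. According to the labels and the study's methods, the authors aligned reads to GRCm38 with Bowtie2 (version not given in the sources used here), removed duplicates and mitochondrial reads, called peaks on each pooled library with MACS2 at p under 0.01, and kept the peaks of smallest p up to a fixed list length. The deposited values are the fold enrichment at the summit, a ratio within a library, and the -log10 p and -log10 q of MACS2. None is scaled between libraries, so ranks within a list were used. Tags at the summit and the background were solved from fold and p, and all came out whole within 0.05. Peaks with the same coordinates were taken as 1 region, and overlap meant 1 bp or more. Starts, genes and UTRs were those of GENCODE vM21, and sequences were read from GRCm38.p6 (RefSeq). Every list ended inside the chromosomes of that build. Coordinates are counted from 1. Intervals are Clopper-Pearson at 95%. The work used scipy 1.17.1, numpy 2.4.6, pandas 2.3.3 and matplotlib 3.10.9 under Python 3.11.15, with seed 1, and the functions were tested on simulated data.

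The members, the 17 gene lists, the motifs and the tests were chosen with earlier results of these data known. Named are Acta1 and Myh6, the list members of largest difference with all factors that the myogenic and cardiac lists call, the 10 promoters of largest difference each way, the 5 genes with the most regions nearby and the 5 strongest regions of each class. Other genes, the Pde4d and Ryr2 sequences and the search for mitochondrial matches were chosen after values were seen. Sequences are shown over 149 bases a side, 1 less than planned, and less where a UTR begins. Alternatives were stricter or size-matched sets, thinned depth, absence judged by the set, 50% overlap and autosomes. Further ones were other promoter windows and starts, other gaps and rank measures, a 50 bp motif window and leaving out each library. Stricter and size-matched sets kept the whole lists for absence. Thinned depth took sets at p under 1e-05 in place of q. Leaving out a library left 1 state to define its tissue. Some measured items are not reported here.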

Additional observations from a re-analysis of the deposited data

Results flagged for a closer look

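List genes whose promoter was higher in muscle in 1 state and higher in heart in the other are given here as values, and the difference between the states was not tested. Ptprc, the pan-leukocyte marker CD45, was 19.7 points higher in muscle in fed mice, while in fasting mice the difference was -49.1. Each value rested on a single weak peak, 2.82 times background in fed muscle and 3.08 times in fasting heart. Fasting muscle and fed heart had no Ptprc peak. Cidec, a lipid droplet protein of adipocytes, differed by 29.1 points in fed mice and by -49.1 in fasting mice. Its peaks were also weak, at 3.44 times background in fed muscle, 2.85 in fed heart and 3.08 in fasting heart, with none in fasting muscle. Ptprc and Cidec belong to the immune and adipocyte marker lists. Over all protein-coding genes 385 promoters (1.75%) had opposite differences of 10 points or more in the 2 states.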

How the results depend on the processing

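The 11 results were recomputed under 121 alternatives, counting each library left out as 1, and 67 of these stayed within the counting interval, the spread of library pairs or 1.5 times the reported count, or, for the promoter share of the sets, kept the direction. The number of muscle-specific regions was 18996 with q under 1e-06, 7057 with the 50000 strongest regions and 21587 with thinned depth, and 48122 to 71439 with 1 library left out, at 71439 without fed and 65501 without fasting muscle. Heart-specific regions numbered 1391, 1664 and 5685 under the same 3 choices. With 1 library left out they numbered 14524 to 55104, at 55104 without fed and 46922 without fasting heart. A tissue reduced to 1 library did not need its regions in both states. Without the mitochondria-like regions, an alternative chosen after seeing the data, 11573 remained and the muscle count did not change. The promoter share of muscle-specific regions was 11.3% with a 1000 bp window, 17.4% with protein-coding starts, 23.2% with the 50000 strongest and 24.8% with absence judged by the set, and 24.2% to 25.7% with 1 library left out. That of heart-specific regions was 15.6% with 1000 bp, 21.1% with protein-coding starts, 26.2% with q under 1e-06 and 26.1% with the 50000 strongest, and 25.3% to 29.96% with 1 library left out. Without fed heart the heart-specific promoter share was 25.9% and without fasting heart 25.3%. Promoters higher in muscle numbered 4311 with no minimum gap, 403 with a gap of 20 points and 1118 with ranks among the set, and 774 to 1151 with 1 library left out, highest without fed heart. Those higher in heart numbered 7157, 831 and 872, and 1804 to 2503, at 2418 without fed and 2503 without fasting heart. The Jaccard index was 0.379 with q under 1e-06, 0.431 with the 50000 strongest regions and 0.394 with thinned depth, and 0.369 to 0.371 with 1 library left out. The promoter share of the muscle sets stayed below that of the heart sets throughout, with differences of -2.21 to -12.4 points. The difference in MyoD-type E-box share was 4.12 points as reported, 5.07 with q under 1e-06 and 7.09 with the 50000 strongest, and 1.45 to 5.89 with 1 library left out, lowest without fed (1.45) and fasting (2.09) muscle. That of the GATA site was -5.34 points, -12.9 with q under 1e-06, -12.7 with the 50000 strongest, -8.00 with thinned depth and -2.97 with a 50 bp motif window, and -4.32 to -2.15 with 1 library left out, smallest in size without fed (-2.15) and fasting (-2.89) heart. That of the MEF2 box was -0.13 points, -0.71 with q under 1e-06 and 0.18 with a 50 bp window, and -0.37 to 1.14 with 1 library left out, so no direction is read from it. The causes were not tested. With the states as a replicate block, an alternative chosen after seeing the data since the tissues of a state came from the same mice, the difference in the promoter share of the sets was -2.62 points in fed and -3.19 in fasting mice, with a mean of -2.91 (exact sign-flip test, two-sided p = 0.5, the smallest that 2 pairs allow). Depth and enrichment were lower in heart, and their part in the counts was not tested. As a limit of the lists, a region absent from a list may lie below its last p.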
